A study of Mus musculus with 6 samples.

Results

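The genes described here are 8 genes of the liver's xenobiotic response: the receptor genes Nr1i2 (PXR) and Nr1i3 (CAR), and 6 of their cytochrome P450 genes, Cyp2b9, Cyp2b10, Cyp2b13, Cyp3a11, Cyp3a13 and Cyp3a25. They were chosen by name, with earlier results of these data known. All 8 have a row among the 16426 gene rows of the authors' deposited table. The series measured bulk liver RNA by sequencing in 6 libraries from male C57/BL mice. A normal group of 3 libraries came from mice given saline, and a model group of 3 came from mice given 20% carbon tetrachloride (CCl4) intraperitoneally over 10 weeks to produce liver fibrosis. The labels give no age and do not say whether each library is 1 animal. CCl4 is a solvent that liver P450 enzymes convert to toxic radicals. A further group in the design, given CCl4 and the flavonoid didymin, was not analysed here.

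The authors' deposited table compares 3 libraries called ly_A with a further 3 called ly_B. No label says which of these is the normal and which is the CCl4 group. Every difference below is stated as ly_A against ly_B, and no difference is attributed to CCl4. The columns of single libraries carry the same unmatched names and entered no calculation (their first lines were read by eye for the sign of the comparison alone), so no value per library, spread between libraries or depth is given. Each log2 fold change is a difference, ly_A over ly_B, as the authors fitted it, and is not a level. A difference was called where the adjusted p in the authors' deposited table was under 0.05. Rows listed with an adjusted p of exactly 1 were treated as not tested, which left 14114 tested genes.

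CAR and PXR are nuclear receptors that sense drugs, bile acids and other foreign or toxic molecules in hepatocytes. Each pairs with a retinoid X receptor (RXR) and binds paired half-sites near its target genes. CAR is best known for raising Cyp2b genes and PXR for raising Cyp3a genes, and the target lists of both receptors overlap. Cyp2b and Cyp3a enzymes sit in the endoplasmic reticulum and oxidise drugs, steroids and bile acids. In mouse liver, Cyp2b9 and Cyp2b13 are known as genes of higher expression in females.

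Both receptors and a pair of Cyp3a genes were higher in ly_A. Cyp2b10, the only Cyp2b gene tested, did not pass, and Cyp2b9 and Cyp2b13 were not tested. Of the 8 genes, 6 were tested, 4 of these were higher in ly_A and 0 were higher in ly_B in the authors' deposited table. Among all tested genes, 18.1% were higher in ly_A and 17.7% were higher in ly_B, together 35.8% of 14114. The median log2 difference of the 6 tested genes was 1.28, beside 0.07 for all tested genes in the authors' deposited table. Because the genes were chosen with earlier results known, this contrast is a description and no test. By the authors' DESeq2 p before adjustment, 1 of the 8 genes, Cyp2b10, stood higher in ly_B at p under 0.05. In bulk liver, fewer hepatocytes and less RNA of a gene per hepatocyte cannot be told apart. The same 4 genes, and no others of the 8, passed under each alternative rule. At an adjusted p under 0.01, 25% of all tested genes passed, 12.3% higher in ly_A and 12.7% higher in ly_B. With a 2-fold difference as well, 18.8% passed, 10.9% higher in ly_A and 7.85% higher in ly_B. With the p adjusted over all 16426 rows, 29.6% passed, 15% higher in ly_A and 14.6% higher in ly_B.

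The promoters of the Cyp3a genes are shown first, because Cyp3a11 and Cyp3a25 were called and Cyp3a13, a gene of the same subfamily, was not. Each is the stretch of 250 bases before the RefSeq start site, written 5′ to 3′ on the gene's strand in build GRCm38.p6. Capitals mark every match that lies wholly within the stretch to the motifs searched, which are spelled out below. The stretches lie at chr5:145879855-145880104 (Cyp3a11), chr5:146009619-146009868 (Cyp3a25) and chr5:137921620-137921869 (Cyp3a13), all on the minus strand.
Cyp3a11: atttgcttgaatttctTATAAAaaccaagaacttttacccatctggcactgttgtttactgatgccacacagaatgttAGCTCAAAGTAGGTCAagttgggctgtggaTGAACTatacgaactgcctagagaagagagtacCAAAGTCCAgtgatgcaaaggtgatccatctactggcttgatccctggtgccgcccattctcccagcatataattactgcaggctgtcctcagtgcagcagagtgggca
Cyp3a25: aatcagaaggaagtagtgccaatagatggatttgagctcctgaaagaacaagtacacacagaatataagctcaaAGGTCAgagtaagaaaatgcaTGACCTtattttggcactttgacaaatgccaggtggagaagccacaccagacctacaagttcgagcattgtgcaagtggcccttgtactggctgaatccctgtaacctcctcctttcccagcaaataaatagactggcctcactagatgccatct
Cyp3a13: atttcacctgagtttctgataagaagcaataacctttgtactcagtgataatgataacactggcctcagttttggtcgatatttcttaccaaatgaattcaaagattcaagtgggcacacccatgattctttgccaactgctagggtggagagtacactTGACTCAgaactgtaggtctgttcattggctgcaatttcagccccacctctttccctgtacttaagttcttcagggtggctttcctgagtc

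The promoters of Cyp2b9 and Cyp2b13 are shown because they are nearly the same sequence and neither gene was tested in the authors' deposited table. In these lines the capitals mark the bases at which the pair differs. The stretches lie at chr7:26173159-26173408 (Cyp2b9) and chr7:26061245-26061494 (Cyp2b13), both on the plus strand of GRCm38.p6.
Cyp2b9: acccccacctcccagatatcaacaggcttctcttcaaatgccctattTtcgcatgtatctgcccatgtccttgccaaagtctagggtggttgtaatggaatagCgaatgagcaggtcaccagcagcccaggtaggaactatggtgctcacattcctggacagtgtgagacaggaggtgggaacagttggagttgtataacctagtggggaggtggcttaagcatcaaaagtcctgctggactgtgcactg
Cyp2b13: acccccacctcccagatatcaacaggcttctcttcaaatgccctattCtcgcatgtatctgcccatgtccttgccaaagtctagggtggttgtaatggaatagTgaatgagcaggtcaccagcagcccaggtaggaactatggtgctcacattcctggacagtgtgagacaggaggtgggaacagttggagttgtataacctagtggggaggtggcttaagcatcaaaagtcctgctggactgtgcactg

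Nr1i2, the gene of PXR, had the largest difference among the called genes of the group. Nr1i2 was 3.47-fold higher in ly_A in the authors' deposited table (log2 value of 1.80, adjusted p = 5.96e-12). Only 935 of the 14114 tested genes, 6.62%, had a higher log2 value than Nr1i2, and 190 had a smaller p. Nr1i3, the gene of CAR, was 2.66-fold higher in ly_A in the authors' deposited table (log2 value of 1.41, adjusted p = 0.000114). A higher log2 value than that of Nr1i3 was found in 10.6% of tested genes. The difference between both receptors' values was not tested.

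Of the 3 Cyp3a genes, 2 passed and 1 did not. Cyp3a11, a main drug-oxidising P450 of mouse liver and a standard readout of PXR activity, was 2.21-fold higher in ly_A in the authors' deposited table (log2 value of 1.14, adjusted p = 0.000227). Cyp3a25 was 3.22-fold higher in ly_A in the authors' deposited table (log2 value of 1.68, adjusted p = 3.39e-06). Cyp3a13, a Cyp3a gene expressed in intestine as well as liver, did not pass, at a log2 value of 0.07 in the authors' deposited table (adjusted p = 0.875). It stood in the middle of all tested genes, of which 50.1% had a higher value. Cyp3a11 and Cyp3a25 are neighbouring genes on chromosome 5, whereas Cyp3a13 lies apart from them on the same chromosome, between Pilrb2 and Gjc3.

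The Cyp2b genes gave no call. Cyp2b10, the classic CAR target gene of mouse liver, stood towards ly_B at a log2 value of -1.08 in the authors' deposited table (p = 0.0342, adjusted p = 0.0834). This was the one negative value among the 6 tested genes of the group, and 91.3% of all tested genes had a higher one. For Cyp2b10 ly_A stood at 47.4% of ly_B, while its receptor gene Nr1i3 was called higher in ly_A. Whether the values of Cyp2b10 and Nr1i3 differ from each other was not tested. Cyp2b9 was listed at a log2 value of 3.35 with a p and an adjusted p of exactly 1 in the authors' deposited table. Cyp2b13 was listed at 23.54, also with a p and an adjusted p of exactly 1. A fitted value of the size of that of Cyp2b13 is not a fold between measured levels, and neither of these genes supports a direction.

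**Figure D1:**
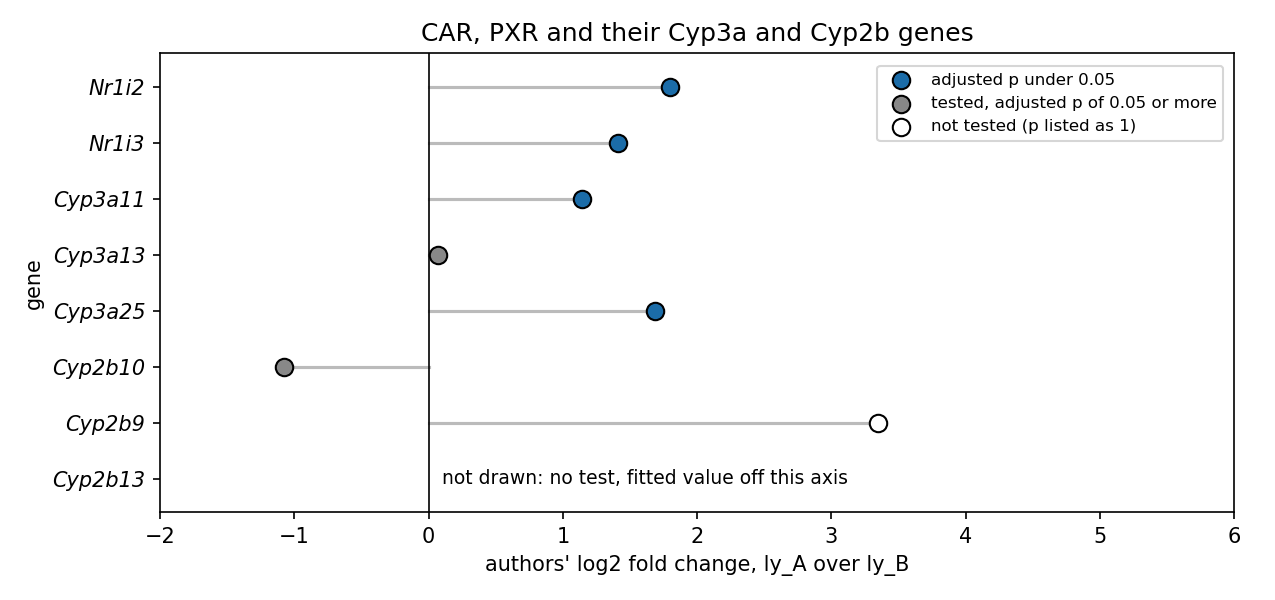
Authors' log2 fold change (x axis, ly_A over ly_B) for the genes named on the y axis, with blue points for an adjusted p under 0.05, grey points for tested genes that did not pass and an open point for a gene with no test. Nr1i2, Nr1i3, Cyp3a11 and Cyp3a25 lie between 1.14 and 1.80, Cyp3a13 lies near 0, Cyp2b10 lies at -1.08, and Cyp2b13 (23.54, no test) is off the axis.

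**Figure D2:**
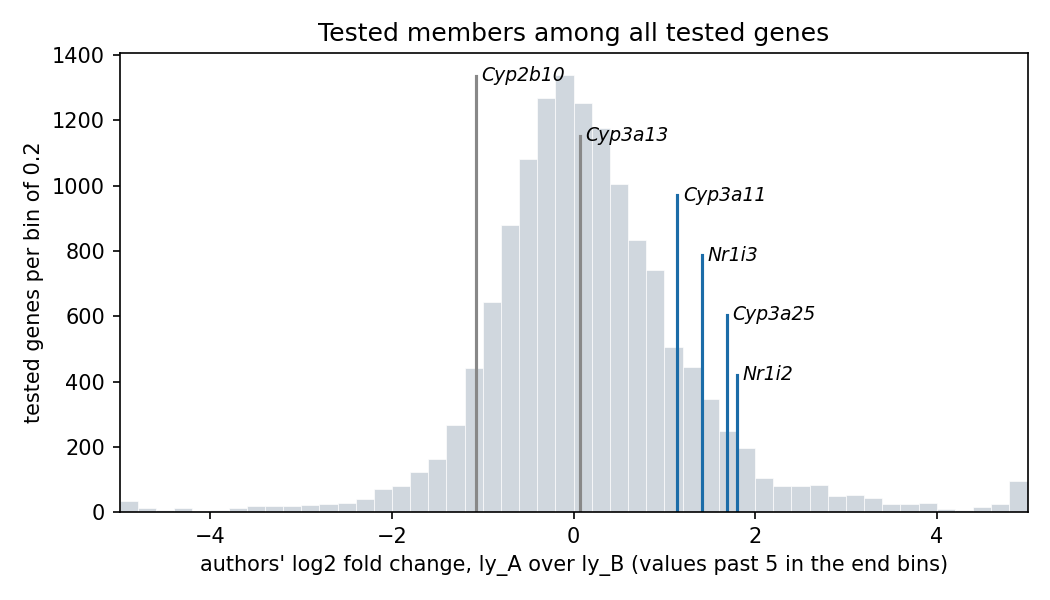
Histogram of the authors' log2 fold change (x axis, ly_A over ly_B) over 14114 tested genes, with the number of genes per bin on the y axis and lines for the 6 tested genes, blue where called and grey where not; the height of a line carries no value. The 4 blue lines lie on the right flank of the histogram, Cyp3a13 lies at its centre and Cyp2b10 on its left flank.

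Copies of P450 genes can share reads, so the sequences of the genes bear on how far each value belongs to 1 gene. In GENCODE M21 transcripts, 26.8% of the windows of 50 bases along the Cyp3a25 transcript also occurred in a transcript of another gene, most of them in Cyp3a59, the gene beside it (25.0%). The Cyp3a25 and Cyp3a59 transcripts were 96.6% identical. For Cyp3a11 the share was 14.8%, with Cyp3a41a the gene that shared most (6.32%). Cyp3a13, Nr1i2 and Nr1i3 shared 0 windows with other genes. Among Cyp2b genes the share was 27.3% for Cyp2b13, 11.2% for Cyp2b9 and 9.69% for Cyp2b10. With windows of 100 bases, chosen after the data were seen, the shares dropped to 6.05% for Cyp3a25, 0.312% for Cyp3a11, 9.29% for Cyp2b13, 1.18% for Cyp2b9 and 0 for Cyp2b10. Neither the read length nor the treatment of reads with several matches is given in the sources used here. The values of Nr1i2, Nr1i3 and Cyp3a13 are thus free of such sharing at both window sizes, and those of the other 5 genes carry it at 50 bases.

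**Figure D3:**
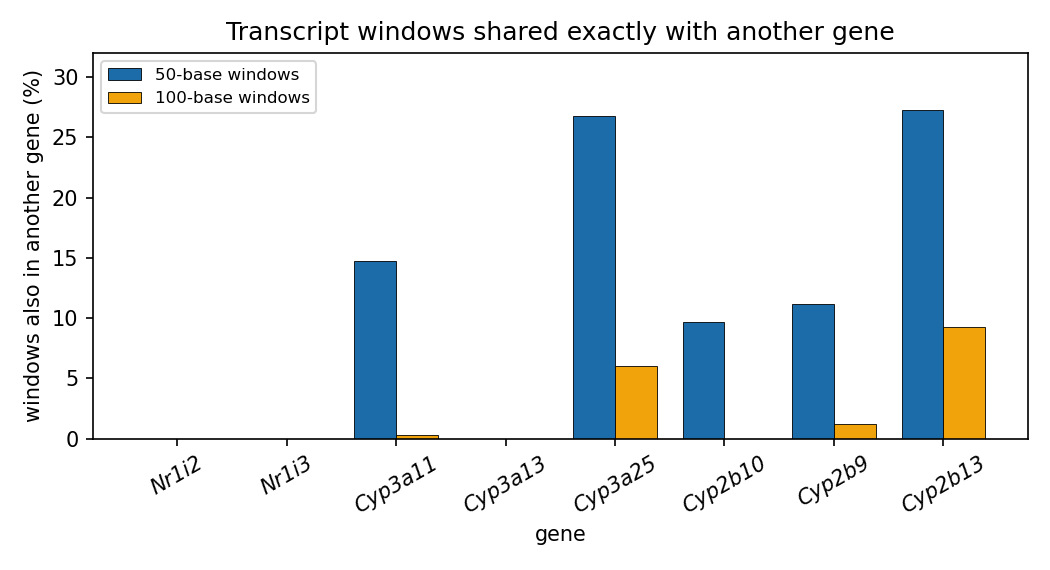
Percent of transcript windows that occur exactly in a transcript of another gene (y axis) for each gene (x axis), for windows of 50 bases (blue) and 100 bases (orange). Cyp2b13 (27.3%) and Cyp3a25 (26.8%) have the tallest 50-base bars, and Nr1i2, Nr1i3 and Cyp3a13 are at 0.

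The promoter stretches were compared letter by letter. Those of Cyp2b9 and Cyp2b13 were 99.2% identical, and differed by the substitutions T48C and C104T, written with the base of Cyp2b9 first and counted from 1 at the 5′ end of the printed stretch. Each was 70% identical to the stretch before Cyp2b10. Cyp2b10, Cyp2b13 and Cyp2b9 follow each other on chromosome 7. Between the called Cyp3a genes, Cyp3a11 and Cyp3a25, the stretches were 52.7% identical. The stretch of Cyp3a13 was 53.5% identical to that of Cyp3a11 and 47.5% identical to that of Cyp3a25. These Cyp3a alignments held 65 to 84 mismatches and 42 to 90 gap bases. No identity between unrelated stretches was computed, so the Cyp3a percentages rank no pair as closer. Whether these percentages differ from each other was not tested.

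In all, 9 motifs were searched on both strands, from 250 bases before to 50 bases after each start site, in the promoters of all 8 genes and of 27025 RefSeq genes. They were the nuclear receptor half-sites AGGTCA and AGTTCA, the direct repeats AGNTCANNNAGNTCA and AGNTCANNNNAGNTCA, the everted repeat TGANCTNNNNNNAGNTCA, CAAAGTCCA (HNF4A), TGANTCA (AP-1), TGACNNNGC (the core bound by NRF2) and TATAAA. The half-site AGGTCA stood in 4 of the 8 promoters, those of Cyp3a11, Cyp3a25, Cyp2b9 and Cyp2b13, and in 16% of all promoters. In Cyp3a11 it was part of the direct repeat AGCTCAAAGTAGGTCA, from -172 to -157, a match found in 0.133% of all promoters. Repeats with a spacing of 4 are among the arrangements that CAR and PXR bind with RXR. Cyp3a11 also held AGTTCA on the opposite strand, from -142 to -137 (14% of all promoters). The same promoter held the HNF4A motif CAAAGTCCA from -109 to -101 (0.477% of all promoters). Its TATAAA match lay from -234 to -229, and 14.2% of all promoters have that motif. Cyp3a25 held AGGTCA on both strands, from -176 to -171 and from -155 to -150. Cyp3a13 held no half-site and had the AP-1 motif from -91 to -85 and again from -6 to 1, a motif that 7.93% of all promoters have. Nr1i3 held the same motif from -109 to -103, and Nr1i2 and Cyp2b10 had no match in this window. The window is short, and the known response modules of Cyp2b10 and Cyp3a11 that lie further upstream are outside it. The motifs were chosen after the sequences were seen, so the shares of all promoters are descriptions and no test. A match is a description of the letters and no measurement of binding.

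**Figure D4:**
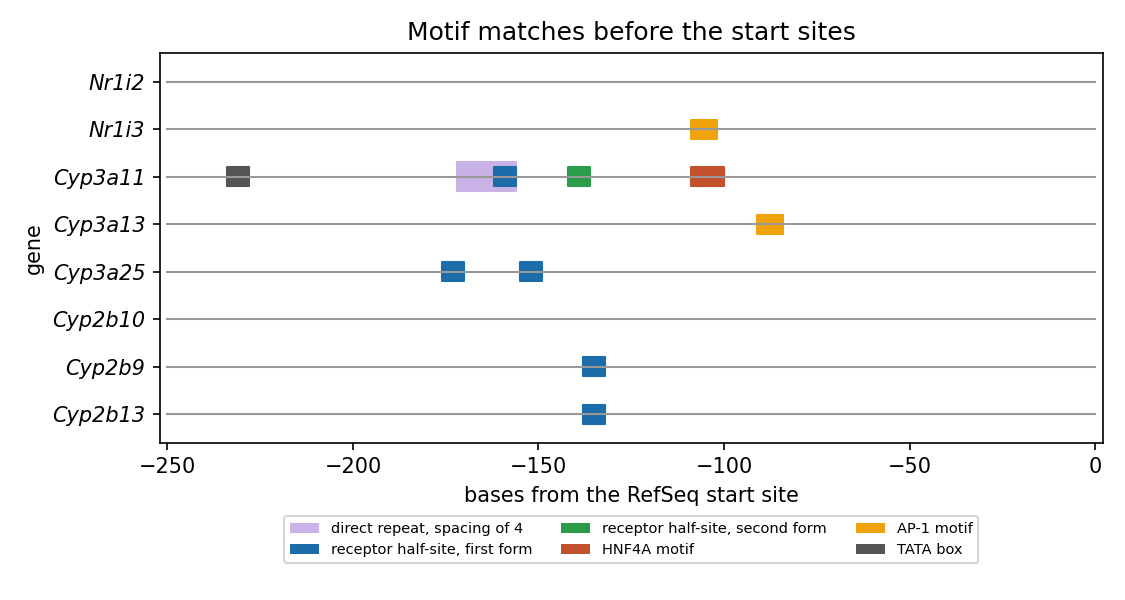
Motif matches (coloured boxes) along the 250 bases before each RefSeq start site (x axis, bases from the start) for the genes on the y axis; the receptor half-site's first form is AGGTCA and its second form AGTTCA. Cyp3a11 carries the direct repeat with a spacing of 4 from -172 to -157, Cyp3a25 carries 2 half-sites, and Nr1i2 and Cyp2b10 have no match.

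Partners of CAR and PXR were called in both directions. The list holds RXR genes, coregulators, proteins that hold CAR in the cytosol, and also Egfr and Ppp2ca. Of its 16 tested genes, 2 were higher in ly_A and 6 in ly_B in the authors' deposited table, with a median log2 value of -0.31. Egfr was among those higher in ly_B, at -0.62 (adjusted p = 0.0213). The shares of all tested genes were 18.1% higher in ly_A and 17.7% higher in ly_B. The count towards ly_A is near its share and so is no result about this list. The count towards ly_B fell to 3 at an adjusted p under 0.01 (12.7% of all tested genes). With a 2-fold difference as well it fell to 1 (7.85% of all tested genes), which is near that share. The RXR genes gave no call: Rxra, the main RXR of hepatocytes, stood at -0.41 (adjusted p = 0.0841) in the authors' deposited table. Nr0b2, the repressor SHP that bile acids induce, was higher in ly_A at 1.35 (adjusted p = 0.00367), and so was the coactivator Ppargc1a at 0.85 (adjusted p = 0.0394) in the authors' deposited table. Hsp90aa1, a chaperone of the complex that keeps CAR out of the nucleus, was higher in ly_B at -1.18 (adjusted p = 0.000428) in the authors' deposited table. Its relative Hsp90ab1 was also higher in ly_B, at -0.84 (adjusted p = 0.000316), and the CAR retention protein Dnajc7 did not pass at 0.18 (adjusted p = 0.439) in the authors' deposited table. Hsp90 genes serve many other client proteins. The corepressor Ncor1 was higher in ly_B at -0.56 (adjusted p = 0.0141) in the authors' deposited table.

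Transcription factors reported to regulate the receptor genes were called in both directions. Of 12 tested, 2 were higher in ly_A and 5 in ly_B in the authors' deposited table, with a median log2 value of -0.32. For comparison, 18.1% of all tested genes were higher in ly_A and 17.7% in ly_B. The count towards ly_A is near that share and so is no result about this list. Onecut1, the hepatocyte factor HNF6, was 16.5-fold higher in ly_B in the authors' deposited table (log2 value of -4.05, adjusted p = 3.35e-34). Cebpb, a factor of the acute phase response, was higher in ly_A at 1.69 (adjusted p = 1.37e-15), as was the bile acid receptor Nr1h4 at 1.45 (adjusted p = 3.72e-08) in the authors' deposited table. Nr3c1, the glucocorticoid receptor, which is reported to raise both receptor genes, was higher in ly_B at -0.91 (adjusted p = 3e-07) in the authors' deposited table. Hnf4a, whose motif stood in the Cyp3a11 promoter shown above, did not pass at -0.05 (adjusted p = 0.876) in the authors' deposited table.

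Other genes reported as targets of CAR or PXR were called in both directions. Of 30 tested, 14 were higher in ly_A and 4 in ly_B in the authors' deposited table, with a median log2 value of 0.47. These counts stand beside 18.1% and 17.7% of all tested genes. The count towards ly_B is near its share and so is no result about this list. Of 6 P450 genes in the list, 5 were higher in ly_A and 0 in ly_B. Cyp2c37 was 14.3-fold higher in ly_A (log2 3.84, adjusted p = 1.3e-30) and Cyp2c54 was 5.08-fold higher (log2 2.34, adjusted p = 4.71e-09) in the authors' deposited table. Cyp2c copies can share reads. Of 10 tested genes of conjugation, 4 were higher in ly_A and 1 in ly_B in the authors' deposited table. The 5 transporters were all called, 2 towards ly_A and 3 towards ly_B in the authors' deposited table. Abcc4, an export pump of the basolateral membrane, was 5.06-fold higher in ly_B (log2 -2.34, adjusted p = 1.89e-05), and the export pump Abcb1a was higher in ly_B at -2.02 (adjusted p = 4.35e-06) in the authors' deposited table. Slco1a4, an uptake transporter and known PXR target, was higher in ly_A at 2.26 (adjusted p = 3.27e-07) in the authors' deposited table. The split by role was made after the values were seen.

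The remaining Cyp2b and Cyp3a genes gave no call. Of 8 in the list, 7 had a row, 2 were tested, and 0 passed in the authors' deposited table. Cyp3a44 stood at 2.92 (p = 0.0209, adjusted p = 0.0565) and Cyp3a59, which shares sequence with Cyp3a25, at 0.87 (p = 0.0227, adjusted p = 0.0602) in the authors' deposited table. Both lie towards ly_A, and both have a p under 0.05 before adjustment.

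P450 enzymes need electrons and haem. Of 14 tested genes of electron supply and haem synthesis and breakdown, 6 were higher in ly_A and 3 in ly_B in the authors' deposited table, with a median log2 value of 0.44. Across all tested genes, 18.1% were higher in ly_A and 17.7% in ly_B. The count towards ly_B is near that share and so is no result about this list. Por, the reductase that feeds electrons to microsomal P450 enzymes and itself a CAR and PXR target, did not pass at 0.82 (adjusted p = 0.0631) in the authors' deposited table. Alas1, the first enzyme of haem synthesis and also a target of these receptors, did not pass at -0.43 (adjusted p = 0.627) in the authors' deposited table. The haem synthesis enzyme Uros was higher in ly_A at 1.22 (adjusted p = 7.75e-07) and Cpox, a later enzyme of that pathway, was higher in ly_B at -0.82 (adjusted p = 0.02) in the authors' deposited table. Blvrb, a biliverdin reductase, was higher in ly_A at 1.05 (adjusted p = 1.04e-08) in the authors' deposited table.

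Inflammatory cytokines are known to lower CAR, PXR and many P450 transcripts in hepatocytes. Of 11 tested cytokine and signal genes, 2 were higher in ly_A and 2 in ly_B in the authors' deposited table, with a median log2 value of -0.25. These counts are near the shares of all tested genes, 18.1% and 17.7%, and so are no result about this list. The receptors Il1r1 at 1.73 (adjusted p = 2.62e-08) and Il6ra at 0.92 (adjusted p = 0.00393) were higher in ly_A in the authors' deposited table. Stat3, which carries the IL-6 signal, was higher in ly_B at -0.70 (adjusted p = 0.000552) in the authors' deposited table. The cytokine genes themselves gave no call: Il1b stood at 0.38 (adjusted p = 0.558) and Tnf at -0.95 (adjusted p = 0.48), and Il6 was not tested in the authors' deposited table.

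**Figure D5:**
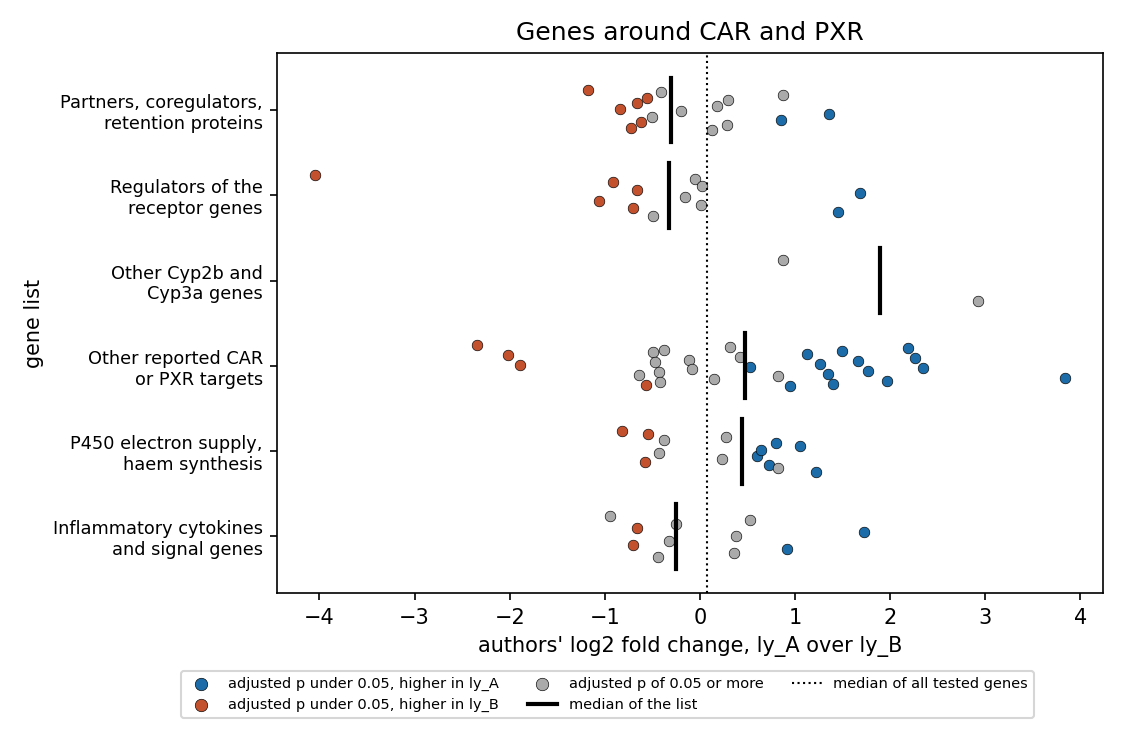
Authors' log2 fold change (x axis, ly_A over ly_B) of each tested gene in 6 lists around CAR and PXR (y axis), blue where called higher in ly_A, red where called higher in ly_B and grey where not called; bars are list medians and the dotted line is the median of all tested genes (0.07). Other CAR or PXR targets reach from -2.34 to 3.84, and the partner and regulator lists have medians below 0.

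Markers of liver cell types were called in both directions. The counts below stand beside 18.1% of all tested genes higher in ly_A and 17.7% higher in ly_B. The lists are short, and a count near these shares is no result about its list. Of 10 hepatocyte markers, all with a row, 4 were higher in ly_A and 1 in ly_B in the authors' deposited table, with a median log2 value of 0.75. Apoa1 was higher in ly_A at 1.22 (adjusted p = 0.00029) and Apob was higher in ly_B at -1.07 (adjusted p = 1.34e-06) in the authors' deposited table. Sinusoidal endothelium had 5 of 6 markers higher in ly_A, with Stab2 at 1.77, and of 8 macrophage markers 4 were higher in ly_A, with the Kupffer cell gene Timd4 at 3.04, in the authors' deposited table. Of 6 lymphocyte markers 3 were higher in ly_A, with Nkg7 at 1.99, and of 6 cholangiocyte markers 2 were higher in ly_B, with Cldn4 at -2.95, in the authors' deposited table. Of 7 tested stellate cell markers 1, Pdgfrb, was higher in ly_B at -0.67, and none of the 3 tested neutrophil markers passed, before or after adjustment, in the authors' deposited table. Tested values ran in both directions within the macrophage list (-0.92 to 3.04), the cholangiocyte list (-2.95 to 0.98) and the stellate cell list (-0.81 to 1.22). They also did within the hepatocyte list (-1.07 to 1.22) and the sinusoidal endothelium list (-0.08 to 1.77). All tested lymphocyte values (1.17 to 1.99) and neutrophil values (0.26 to 0.94) were above 0. Summed levels of these markers were not used here, and their part in the differences of the 8 genes was not tested.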

How the data were processed

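Per the labels' protocols, Trizol was used for the RNA and a NEBNext kit for the libraries. DESeq2 (version not given) and build mm9 are named in the submitters' processing notes. No aligner, counter or annotation is given in the sources used here. Per the file headers, the deposited table holds a log2 fold change, a p-value and an adjusted p-value for each gene. The log2 value is read as ly_A over ly_B, after the comparison's name; in the table's first lines, read by eye, negative values went with higher columns of ly_B. The 18 columns of single libraries match no label and entered no calculation, so the planned test of normal against CCl4 was not run.

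Of 16426 rows, 2312 list an adjusted p of exactly 1. A Benjamini-Hochberg adjustment over the remaining 14114 rows gave their deposited adjusted p within a relative difference of 9.47e-13, so only these count as tested. That adjustment was also checked on simulated p-values. The genes and lists were chosen with earlier results of these data known. From each list of pathway genes the 3 called genes with the largest difference are named, or, with fewer than 2 called, the 2 tested genes with the smallest p; cell type lists give called genes only. Named after their values were seen, outside this rule, were Rxra, Hsp90ab1, Dnajc7, Ncor1, Egfr, Ppp2ca, Nr3c1 and Hnf4a. Also named in this way were Abcb1a, Slco1a4, Por, Alas1, Il6, Il1b and Tnf, and in the closing section Cyp3a16, Cyp3a41a and Cyp2b19. RefSeq promoters (GRCm38.p6) and GENCODE M21 transcripts (longest protein-coding per gene) were matched by symbol, 8 of 8. Identity is the share of aligned columns in a global alignment (Biopython 1.88), gaps included. Calculations used Python 3.11.15 and pandas 2.3.3. The motifs searched were chosen after the sequences were seen. Alternatives were an adjusted p under 0.01, a difference of at least 2-fold as well, and an adjustment over all rows.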

Additional observations from a re-analysis of the deposited data

How the results depend on the processing

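Among the 8 genes, the same 4 genes stayed called higher in ly_A, and 0 were called higher in ly_B, at an adjusted p under 0.01, with a 2-fold difference as well, and with the p adjusted over all 16426 rows. Of the 92 genes of the 6 pathway lists, 83 were tested, and 26 were called higher in ly_A and 20 higher in ly_B, beside 18.1% and 17.7% of all tested genes. The count towards ly_B moved to 13 at an adjusted p under 0.01 (12.7% of all tested genes) and to 6 with a 2-fold difference as well (7.85%), both stricter by construction. The count towards ly_A was 22 at an adjusted p under 0.01 (12.3% of all tested genes). It was 18 with a 2-fold difference as well (10.9%), and 25 with the p adjusted over all rows (15% of all 16426 rows). No paired analysis was possible because the library columns match no label and the only result comes from the authors' own comparison. The single-library columns were left unused, so edgeR, DESeq2 with its own size factors, a low-count filter and leaving out single libraries were not run. Such checks of ly_A against ly_B would not need the missing labels. The number of the 8 promoters with each motif did not change when only the bases before the start were searched, but the match in Cyp3a13 across the start site falls outside that search, and fewer of all promoters held AGGTCA (3740 in place of 4335).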

Other observations

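The untested rows hold further genes of this family. Cyp3a16, Cyp3a41a and Cyp2b19 are listed with one identical log2 value, 1.33, and one identical p, 0.745, in the authors' deposited table, and 296 rows of that table share this pair of values.

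A p of exactly 1 stands in 122 rows of the authors' deposited table, Cyp2b9 and Cyp2b13 among them. All 122 have a log2 value above 0, and 36 have one above 20, whereas 0 have one below -20.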
